A study of Mus musculus with 52 samples.

Results

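The endothelial ETS factors are 7 transcription factor genes, Erg, Fli1, Ets1, Ets2, Elk3, Etv6 and Elf1, taken by name and followed among the 49509 genes for which reads were summed over transcripts in every mouse RNA-seq library. The rule used no measured value. All 7 were found, and the chromatin around each was followed through the ATAC-seq peaks that lay within 50 kb of the gene, which came to 186 of 66740 regions.

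ETS proteins share a DNA-binding domain that reads a GGAA core, and enhancers of many endothelial cell (EC) genes carry such sites. Erg and its close relative Fli1 maintain EC identity and junctions, Ets1 and Ets2 are activators that respond to Ras/MAP kinase signaling, and Elk3 is a ternary complex factor that partners with serum response factor. Etv6 is a repressor with a role in blood and vessel formation, and Elf1 is an activator first studied in lymphocytes that also binds enhancers of EC receptor genes. Beta-catenin, the protein stabilized in these mice, acts in the nucleus with TCF/LEF factors, a different DNA-binding family.

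The series holds 52 samples in 26 groups of 2, all from adult male mice. ECs of WT mice were sorted by GFP from Tie2-GFP animals, whose transgene labels ECs. ECs with stabilized beta-catenin came from Tie2-GFP; Pdgfb-CreER; BcatEx3fl animals that had received 100 ug 4-hydroxytamoxifen (4HT) at P10, which excises exon 3 of Ctnnb1 on 1 allele in cells that express the EC driver Pdgfb-CreER. GFP-positive ECs and GFP-negative cells were taken from cerebellum, anterior pituitary and posterior pituitary (24 RNA-seq libraries), and GFP-positive ECs of the same tissues and genotypes gave 12 ATAC-seq libraries. Each pituitary replicate pooled 20 to 30 mice aged P30 to P90. The WT sorted mice carried no Pdgfb-CreER, so effects of the driver and of 4HT cannot be told apart from those of stabilized beta-catenin in the sorted cells. For cortex and choroid plexus, RNA bound to tagged ribosomes was captured from RiboTag; Pdgfb-CreER animals (WT) and RiboTag; Pdgfb-CreER; BcatEx3fl animals (stabilized) aged 6 to 8 weeks and compared with input RNA of the whole tissue (16 libraries), so both of these genotypes carried the driver, and both had been injected with 4HT some weeks earlier. For choroid plexus, each sample combined the tissue of 3 to 4 mice. The second stabilized anterior pituitary GFP-positive library carries a conflicting tissue entry in its labels and was used as anterior pituitary, as its title and source name state. Leaving it out changed no call of a member between stabilized and WT ECs.

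Estimated read totals were 12157485 to 37529274 in the sorted libraries (median 27638900) and 6409013 to 21399125 in the RiboTag libraries (median 10036750). The summed level of 10 EC markers was 2191.3 to 7739 TPM, Salmon's abundance per transcript length and library, in the 12 GFP-positive libraries, with 10 of 10 detected in each, and 3.3 to 60.6 TPM in the 12 GFP-negative libraries. Some libraries held RNA of other cells as well. Erythrocyte markers summed to 65218.5 TPM in the first WT cerebellum GFP-positive library against 7176.9 in the second, and 10 microglia markers to 3870.1 and 2694.1 TPM in WT cortex bound RNA against 102.1 and 108.6 in its input. Below, a pair of values always gives the first and then the second replicate in CPM, the read count scaled to library size, and a change was called where edgeR's quasi-likelihood test gave a Benjamini-Hochberg adjusted p under 0.05 over all genes tested together with at least a 2-fold difference. With 2 samples per group the p-values measure the spread between these samples, which were pools of mice for pituitary and choroid plexus.

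The regions whose sequences bear on stabilized ECs are the 6 within 50 kb of a member that, in each of the 2 pituitary lobes, had a peak in both stabilized libraries and in neither WT library. They are shown first because their accessibility is taken up again with the peak counts. The summit of each peak with 100 bases on either side was read from the GRCm38 genome on the plus strand. Capitals mark every match, on either strand, to TTCAAAG or to ATCAAAG, which are letters that TCF/LEF factors prefer, and to the ETS cores CCGGAA or else CAGGAA. A match on the other strand appears in its reversed complement, for example TTCCTG for the second ETS core.
Elk3 intron, chr10:93267570-93267770: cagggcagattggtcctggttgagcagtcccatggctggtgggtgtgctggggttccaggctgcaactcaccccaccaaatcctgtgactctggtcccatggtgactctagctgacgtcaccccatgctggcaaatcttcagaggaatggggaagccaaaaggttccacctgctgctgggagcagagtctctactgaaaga
Erg intron, chr16:95384839-95385039: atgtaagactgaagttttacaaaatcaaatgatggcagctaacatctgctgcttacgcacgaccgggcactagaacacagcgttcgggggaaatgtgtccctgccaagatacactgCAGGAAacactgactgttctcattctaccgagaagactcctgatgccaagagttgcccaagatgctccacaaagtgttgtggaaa
Ets1, upstream, at the start of Gm47680, chr9:32613169-32613369: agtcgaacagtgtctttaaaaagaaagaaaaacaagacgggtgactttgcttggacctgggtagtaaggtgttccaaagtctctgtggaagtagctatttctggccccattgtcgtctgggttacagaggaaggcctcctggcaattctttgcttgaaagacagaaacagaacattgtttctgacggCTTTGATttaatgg
Ets1 intron, chr9:32743724-32743924: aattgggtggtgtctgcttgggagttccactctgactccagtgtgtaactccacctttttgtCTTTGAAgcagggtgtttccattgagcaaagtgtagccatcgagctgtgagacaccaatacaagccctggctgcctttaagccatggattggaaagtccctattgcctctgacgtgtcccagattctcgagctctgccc
Ets2 intron, chr16:95708265-95708465: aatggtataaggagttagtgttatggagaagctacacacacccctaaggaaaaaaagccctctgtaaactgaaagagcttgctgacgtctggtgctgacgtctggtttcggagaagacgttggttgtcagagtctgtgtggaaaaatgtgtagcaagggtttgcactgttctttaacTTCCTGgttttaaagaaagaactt
Fli1, intergenic, chr9:32561505-32561705: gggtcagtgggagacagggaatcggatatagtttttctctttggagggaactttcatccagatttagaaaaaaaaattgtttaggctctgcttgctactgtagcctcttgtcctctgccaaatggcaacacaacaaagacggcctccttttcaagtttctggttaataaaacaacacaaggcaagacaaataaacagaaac

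The genes lie as neighbors in 2 pairs. Erg (ENSMUSG00000040732, chr16:95359169-95586593, minus strand) and Ets2 (ENSMUSG00000022895, chr16:95702075-95721051, plus strand) are 115481 bp apart, and Fli1 (ENSMUSG00000016087, chr9:32422204-32542861, minus strand) and Ets1 (ENSMUSG00000032035, chr9:32636221-32757820, plus strand) are 93359 bp apart, with 0 protein-coding genes between the members of either pair. Elk3 (ENSMUSG00000008398) is at chr10:93247414-93311135 on the minus strand, Etv6 (ENSMUSG00000030199) at chr6:134035700-134270158 on the plus strand and Elf1 (ENSMUSG00000036461) at chr14:79481194-79582494 on the plus strand. Each member of a pair points away from the other, so the space between them lies upstream of both genes.

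Per length and by the median over all EC libraries, Ets1 and Elk3 were the most abundant of the 7 and Etv6 the least. In the 12 GFP-positive libraries the level of Ets1 was 63.2 to 262.1 TPM (median 136.5) and that of Elk3 86.73 to 467.6 TPM (median 130.8), ranges that overlap from 86.73 to 262.1 TPM. Ets2 followed at 30.79 to 88.1 TPM (median 38.29) and Fli1 at 16.08 to 153.6 TPM (median 36.81). Elf1 at 13.09 to 43.94 TPM (median 22.77), Erg at 0.9663 to 31.16 TPM (median 16.31) and Etv6 at 3.491 to 17.41 TPM (median 9.557) closed the order, and each neighbor in it overlapped the next. In cerebellum ECs Erg lay below Etv6 by its group mean instead, at 11.06 against 12.99 TPM in WT and 5.09 against 10.17 TPM in stabilized mice. In the 8 bound libraries Ets1 (median 34.69 TPM), Elk3 (22.62) and Fli1 (17.08) led, while Etv6 (8.486), Elf1 (6.036), Ets2 (5.562) and Erg (4.615) lay lower. The place of Ets2 in bound RNA differed between groups, with group means of 11.18 TPM in WT cortex, above Etv6, Elf1 and Erg, 3.92 in stabilized cortex, the lowest of the 7, 2.68 in WT choroid plexus, above Erg alone, and 7.54 in stabilized choroid plexus, again above Etv6, Elf1 and Erg. Short transcripts that take part of the reads of Ets1, Fli1 and Elk3 raise their TPM, and the comparisons between samples below use CPM instead. For Ets1 in GFP-positive libraries, transcripts of 678 and 2107 bp took medians of 4.8% and 11.76% of its reads, beside a main one of 5080 bp.

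Erg and Fli1, the closest relatives of the group, were far lower in GFP-negative cells than in ECs, and Erg was near 0 in most GFP-negative libraries. Erg was at 0 and 0.792 CPM in WT GFP-negative cells of the cerebellum and at 17.4 and 54.1 CPM in the ECs. In the anterior pituitary it was at 0 and 2.29 CPM in GFP-negative cells and at 50.7 and 35.5 CPM in ECs, and in the posterior pituitary at 0.0549 and 0 CPM against 31.9 and 47.8 CPM. The EC libraries were above the GFP-negative ones in each tissue, and single GFP-negative libraries carried most of what Erg signal there was. Fli1 was at 5.10 and 11.8 CPM in GFP-negative cells of the cerebellum against 164.2 and 231.7 in ECs, at 2.91 and 6.24 against 96.5 and 135.6 in the anterior pituitary, and at 0.0275 and 0 against 310.8 and 186.1 in the posterior pituitary. Its posterior pituitary GFP-negative cells held 1 read in both libraries together, which puts the ratio at 1.43e+04 with a counting interval of 2566 to 564754. For Erg the same comparison rested on 2 reads, a ratio of 1147 with an interval of 318 to 9472. These intervals, at the 95% level, cover counting error only.

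Ets1, Ets2 and Elk3 were high in ECs of all 3 tissues but differed in how much signal the other cells held. Ets1 was at 17.6 and 11.0 CPM in WT GFP-negative cells of the cerebellum and 472.7 and 689 in ECs, at 8.30 and 12.8 against 525 and 561.9 in the anterior pituitary, and at 0 and 4.97 against 581.6 and 535.8 in the posterior pituitary. Ets2 was at 23.4 and 32.8 CPM against 244.5 and 224.7 in the cerebellum, at 84.2 and 132.8 against 382.7 and 423.8 in the anterior pituitary, and at 148.1 and 141.4 against 433.6 and 207.4 in the posterior pituitary. In WT mice the pituitary GFP-negative libraries thus lay above those of the cerebellum for Ets2, without overlap, a difference that was not tested. In stabilized mice they overlapped, at 65.7 and 103.5 CPM in the cerebellum, 104.2 and 98.6 in the anterior and 152.9 and 62.6 in the posterior pituitary. Elk3 was at 7.75 and 17.5 CPM against 192.9 and 237.6 in the cerebellum, at 32.8 and 28.6 against 399.7 and 421.8 in the anterior pituitary, and at 42.1 and 41.4 against 663.7 and 415.1 in the posterior pituitary.

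Elf1 was also higher in ECs, and Etv6 differed least between the fractions. Elf1 was at 28.3 and 21.6 CPM in WT GFP-negative cells of the cerebellum and 102.9 and 80.8 in ECs, at 43.5 and 30.9 against 220.3 and 188.8 in the anterior pituitary, and at 12.1 and 22.8 against 80.9 and 104.1 in the posterior pituitary. Etv6 was at 14.6 and 24.7 CPM against 38.1 and 51.3 in the cerebellum, at 20.3 and 22.6 against 44.9 and 36.0 in the anterior pituitary, and at 16.7 and 95.1 against 32.4 and 52.3 in the posterior pituitary. The second posterior pituitary GFP-negative library therefore lay above both EC libraries for Etv6, the only overlap between the fractions among the 21 pairs of member and tissue in WT mice. In stabilized mice the fractions overlapped for none of the 21 pairs. Of all 21324 genes, the ECs lay above the GFP-negative cells without overlap for 21%, 20.7% and 18% in WT cerebellum, anterior and posterior pituitary, and for 19.1%, 25.7% and 25.8% in stabilized mice.

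**Figure D1:**
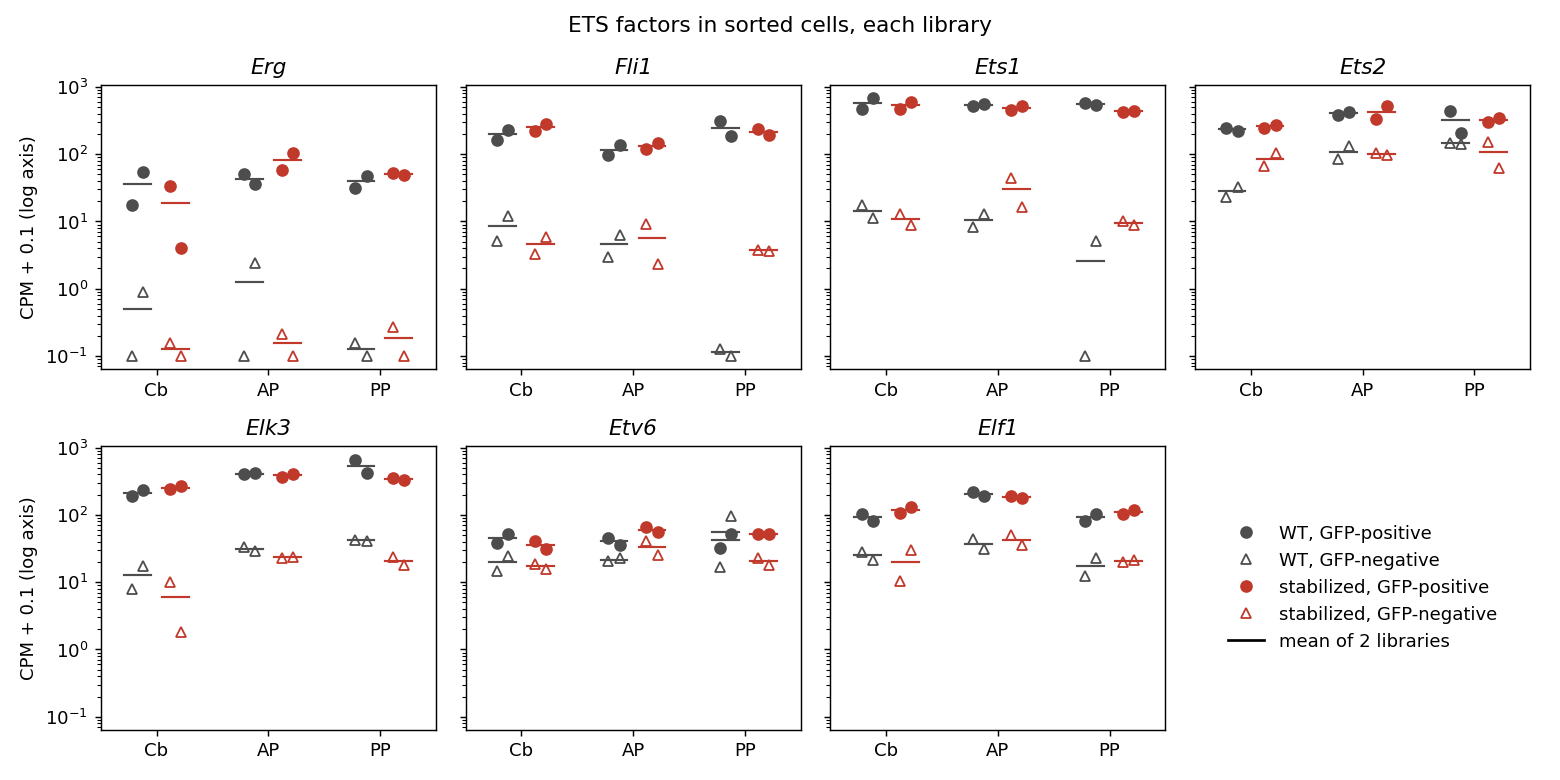
Level of each ETS factor in the sorted RNA-seq libraries (CPM on a log scale, with each point 1 library and 2 per group) in GFP-negative and GFP-positive cells of WT and stabilized mice from cerebellum (Cb), anterior pituitary (AP) and posterior pituitary (PP). GFP-positive libraries lie above GFP-negative ones for every gene and tissue except Etv6 in WT posterior pituitary, where 1 GFP-negative library stands at 95.1 CPM.

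In the test across all genes, 16 of the 21 pairs of member and tissue were called higher in WT ECs than in GFP-negative cells. In the cerebellum 6 of 7 members were called, where 4.46% of the 21324 genes tested were called higher, and the members' median log2 fold change was 4.09 against -0.12 for all genes. In the anterior pituitary 5 of 7 were called (5.46% of all genes), with a median of 3.74 against -0.03, and in the posterior pituitary 5 of 7 (7.08% of all genes), with a median of 3.69 against 0. Fli1, Ets1, Elk3 and Elf1 were called in all 3 tissues, Erg in cerebellum and posterior pituitary, Ets2 in cerebellum and anterior pituitary, and Etv6 in none.

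The differences between ECs and GFP-negative cells were wide for Ets1 and Fli1 and narrow for Etv6. Ets1 was 5.34 ± 1.08 (log2 fold change ± SE, n = 2 per group, edgeR adjusted p = 0.0028) higher in cerebellum ECs, and Fli1 4.55 ± 0.63 (adjusted p = 9.87e-05). Ets2 was 3.06 ± 0.44 higher there (adjusted p = 0.000146) but 1.89 ± 0.42 in the anterior pituitary (adjusted p = 0.00564) and 1.15 ± 0.41 in the posterior pituitary, where the adjusted p was 0.0727. Elk3 differed by 4.09 ± 0.56, 3.74 ± 0.55 and 3.69 in cerebellum, anterior and posterior pituitary, and Elf1 by 1.88 ± 0.44, 2.46 ± 0.44 and 2.41. Etv6 differed by 1.19 ± 0.58, 0.91 and -0.40, with adjusted p-values of 0.23, 0.335 and 0.75.

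Erg had the widest standard errors of the 7, and its GFP-negative signal rested on few reads and on single libraries. Its difference was 6.50 ± 1.84 in the cerebellum (edgeR adjusted p = 0.0256), 5.23 ± 1.71 in the anterior pituitary (adjusted p = 0.0561) and 10.06 ± 2.25 in the posterior pituitary (adjusted p = 0.00425). Without the first cerebellum GFP-negative library it was 5.56 and no longer called (adjusted p = 0.073), and with only the compared groups it was 6.62 and not called (adjusted p = 0.066). In the anterior pituitary the call was made without the second GFP-negative library (adjusted p = 0.0030), where the remaining one held 0 reads and no fold can be given, without the second GFP-positive library (5.6, adjusted p = 0.041), without the filter on low counts (5.28, adjusted p = 5.34e-07) and by DESeq2 (5.21, adjusted p = 0.00895). Elf1 in the cerebellum lost its call without the second GFP-negative library (1.80, adjusted p = 0.055), as did Ets2 in the anterior pituitary without the first (1.74, adjusted p = 0.054). Ets2 in the posterior pituitary was called without the second GFP-positive library (1.62, adjusted p = 0.021), without the filter (1.18, adjusted p = 0.032) and by DESeq2 (1.12, adjusted p = 0.037). Leaving out 1 library moved other values that stayed called by more than 1.5 times as folds. Erg in the cerebellum was at 7.18 without the first GFP-positive library and 5.50 without the second (adjusted p = 0.0103 and 0.0468), and Ets1 in the posterior pituitary at 6.96 without the first GFP-negative one. For Erg in the cerebellum without the second of them, and in the posterior pituitary for Ets1 without the second and for Fli1 and Erg without the first, the remaining library held 0 reads and no fold can be given. Ets1 there was not called with only the compared groups (7.91, adjusted p = 0.070). Without the second GFP-negative library Elf1 in the posterior pituitary was at 3.05, Fli1 at 5.39 in the cerebellum and 5.46 in the anterior pituitary, and Elk3 at 4.91 in the cerebellum. With an offset for gene length Fli1 in the cerebellum was at 3.51, about 2 times lower as a fold, and still called (adjusted p = 0.00418). The same offset put Fli1 in the anterior pituitary at 5.31, Elk3 there at 4.38 and Ets1 in the posterior pituitary at 9.05, all called. With a replicate block within each preparation Erg in the anterior pituitary was at 6.82 and called (edgeR adjusted p = 0.044).

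Over the 24 sorted libraries, which share the contrast of ECs with other cells, the genes whose log2(TPM + 1) was most like that of each member were sought among 9331 genes with a mean of at least 5 TPM. Erg was closest to Pcdh12 (Pearson r = 0.9675), 4833403J16Rik (0.9663) and Rasip1 (0.9634), Fli1 to Cav2 (0.975), Thsd1 (0.9724) and Pecam1 (0.9713), and Ets1 to Slfn5 (0.9784), Lgals9 (0.9747) and Zfp366 (0.9739). Pcdh12 is an endothelial protocadherin, Rasip1 acts in EC lumen formation, and Pecam1 is an EC adhesion molecule. Elk3 was closest to Arhgap29 (0.9702), Tagln2 (0.9692) and Sav1 (0.9667), Ets2 to Tpm4 (0.9222), A330009N23Rik (0.9126) and Grasp (0.9107), and Elf1 to Myl6 (0.9465), Tagln2 (0.9462) and Lmo2 (0.9385). Etv6 had no such partner, since its nearest genes were Eftud2 (0.7644), Srpk1 (0.7619) and Kdm6a (0.7453).

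Among themselves the 6 members other than Etv6 correlated at 0.7487 to 0.9497 over the same 24 libraries, highest for the neighbors Fli1 and Ets1, and Etv6 correlated with them at 0.3174 to 0.5466. Within the 12 GFP-positive libraries, which leave out the sorted GFP-negative cells but differ in their RNA of other cells, the pairwise values spread from -0.3937 to 0.7666. Ets2 with Elk3 (0.7666) and Ets1 with Elk3 (0.7665) were the highest, and Erg with Fli1 stood at -0.1469. The nearest genes among 8792 were different ones as well, among them Gtf2f2 (0.9447) and Oaz2 (0.939) for Erg, Telo2 (0.9023), Sys1 (0.8968) and Zbtb18 (0.8647) for Fli1, and Ciz1 (0.9252), Ppp1r12c (0.9211) and Klf3 (0.9144) for Ets1. For Ets2 they were Cnp (0.9287), Map1b (0.9091) and Rpl4 (0.8995), for Elk3 Tgoln1 (0.9488), Asap2 (0.9408) and Tvp23b (0.9373), for Etv6 Snx29 (0.8238), Atp9b (0.8047) and Dcun1d1 (0.7961), and for Elf1 Chgb (0.9309), Rasd1 (0.927) and Hipk2 (0.9017). These 12 libraries share tissue, genotype and depth differences, so the values describe the libraries, not shared control.

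Between WT ECs of the 3 tissues, 2 of the 21 member comparisons were called. Elf1 was lower in cerebellum than in anterior pituitary ECs by 1.16 ± 0.26 on the log2 scale (edgeR adjusted p = 0.0174, 5.25% of 17900 genes called), from the values of 102.9 and 80.8 CPM against 220.3 and 188.8. Elk3 was lower in cerebellum than in posterior pituitary ECs by 1.33 ± 0.27 (adjusted p = 0.011, 4.4% of genes called), from 192.9 and 237.6 CPM against 663.7 and 415.1. Neither pair of groups overlapped. Elk3 in cerebellum against anterior pituitary stood at -0.93 (adjusted p = 0.068). The 10 EC markers had a median of -1.09 in cerebellum against posterior pituitary, with 9 of 10 below 0 and 6 called lower, and of -0.28 in cerebellum against anterior pituitary, with 6 below 0 and 2 called lower. Between the lobes all 10 were below 0, toward the posterior lobe, with a median of -0.50 and 1 called. Their part in the differences of the members between tissues was not tested.

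Between the pituitary lobes 0 of 7 members were called by edgeR (0.994% of genes called), 2 had an unadjusted p under 0.05, and DESeq2 called 2. These were Elf1, at 1.14 toward the anterior lobe (edgeR adjusted p = 0.063), and Fli1, at -1.11 (adjusted p = 0.159), and both were also called without the filter on low counts (1.15 and -1.10, adjusted p = 0.028 and 0.025). The Elf1 call in cerebellum against anterior pituitary did not hold without the second cerebellum library (-1.01, adjusted p = 0.19), the first anterior library (-1.04, 0.14) or the second (-1.26, 0.052). The Elk3 call was lost without the first cerebellum library (-1.18, adjusted p = 0.084) and, without the first posterior library, fell under 2-fold (-0.95, adjusted p = 0.046). With an offset for gene length Elf1 was at -1.19 (adjusted p = 0.11) and Elk3 at -1.01 (0.30), and with the 2 groups fitted alone they were at -1.14 (0.058) and -1.33 (0.18), so the folds stayed near their size and neither was called. In whole-population RNA, fewer cells of a type and less RNA per cell cannot be told apart here or in any comparison below.

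With beta-catenin stabilization, 0 of the 21 pairs of member and tissue were called in ECs by edgeR, and DESeq2 also called 0. Of all genes, 0.648% were called in the cerebellum, 0.458% in the anterior pituitary and 1.82% in the posterior pituitary. At an unadjusted p under 0.05 the counts of members were 0, 0 and 1. The members' median log2 differences were 0.14, 0.08 and -0.01 against -0.08, 0.06 and 0.01 for all genes, and their ranges were -0.97 to 0.37, -0.16 to 0.90 and -0.67 to 0.33. In CPM, both stabilized libraries lay above both WT libraries for Ets2, Elk3 and Elf1 in the cerebellum, for Erg and Etv6 in the anterior pituitary and for Erg in the posterior pituitary, and below them for Ets1 and Elk3 in the posterior pituitary. These 8 of 21 pairs stand beside 30.2%, 39.2% and 36.4% of all genes whose groups did not overlap in either direction in the 3 tissues, so the members' share is near that of all genes. In the cerebellum comparison the EC markers had a median of -0.31, with 10 of 10 below 0 and 1 called lower. Their part in the members' values was not tested.

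The values of single members show the spread behind this. In the anterior pituitary Erg was at 50.7 and 35.5 CPM in WT ECs against 58.6 and 103.6 in stabilized ones, the 0.90 at the upper end of the range, with the stabilized libraries above the WT ones. In the posterior pituitary Erg was at 31.9 and 47.8 CPM in WT and 52.4 and 49.5 CPM in stabilized ECs, which did not overlap either. Ets1 in the anterior lobe was at 525 and 561.9 CPM in WT and 458.7 and 528.9 CPM in stabilized ECs, and Fli1 at 96.5 and 135.6 against 120.6 and 146.1, so that both overlapped. In the cerebellum Ets1 was at 472.7 and 689 CPM against 468.7 and 607.7, which also overlapped in this unit.

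On the deposited TPM scale some of these differences were larger or turned. TPM weighs a gene by the transcripts its reads are assigned to and by the rest of the library, and the median log2(TPM + 1) difference over genes with a mean of at least 1 TPM was -0.13 in the cerebellum, 0.05 in the anterior pituitary and -0.72 in the posterior pituitary. Etv6 in the anterior pituitary was at 4.62 and 6.02 TPM in WT and 12.9 and 17.4 TPM in stabilized ECs, 1.35 higher on the log2(TPM + 1) scale and without overlap, against 44.9 and 36.0 and then 65.6 and 54.9 CPM (0.56 ± 0.35, edgeR adjusted p = 0.70). Erg in the posterior pituitary was at 27.0 and 26.8 TPM in WT and 9.75 and 9.30 TPM in stabilized ECs, a difference of -1.41, or -0.69 from the median, so its direction is opposite in CPM and in TPM. Ets1 lay below WT without overlap in all 3 tissues in TPM, though in CPM it did so in the posterior pituitary alone. It was at 165.5 and 166 TPM in WT and 111.6 and 109.7 TPM in stabilized cerebellum ECs (-0.58, or -0.45 from the median), and at 156.1 and 223.5 against 143.2 and 129.9 TPM in the anterior pituitary (-0.45, or -0.50 from the median). In the posterior pituitary Ets1 was at 262.1 and 124.3 against 63.2 and 80.4 TPM (-1.33) and Elk3 at 467.6 and 155.4 against 86.7 and 107.6 TPM (-1.47), both below WT in either unit. Elf1 was at 24.4 and 19.6 against 13.1 and 15.0 TPM (-0.60, but 0.11 from the median) and Ets2 at 88.1 and 33.9 against 30.8 and 34.7 TPM (-0.73, or -0.01 from the median). In the cerebellum Fli1 lay above WT (28.6 and 46.3 against 53.7 and 57.3 TPM) and Etv6 below it (14.2 and 11.8 against 10.1 and 10.2 TPM) without overlap in TPM alone, whereas Ets2 and Elf1 there and Erg in the anterior pituitary overlapped in TPM and not in CPM. These TPM differences were not tested.

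Elk3 in the posterior pituitary was the member with an unadjusted p under 0.05. It was at 663.7 and 415.1 CPM in WT and 355.4 and 333.5 CPM in stabilized ECs, a difference of -0.67 ± 0.26 (edgeR adjusted p = 0.284). Ets1 there was at 581.6 and 535.8 CPM against 422.2 and 443.9, also without overlap. In the same libraries the EC marker sum was 7739 and 5247.2 TPM in WT and 2542.4 and 2191.3 TPM in stabilized ECs, and the microglia sum 51.6 and 37.1 against 352.5 and 258.6 TPM (in the anterior pituitary 26.7 and 20.1 against 191.8 and 315.9). In the test on counts the median of the EC markers there was -0.56, with 9 of 10 below 0 and 2 called lower, and that of the microglia markers 8.14, with 10 of 10 above 0 and 3 called higher. On the same scale of counts Ets1 stood at -0.39 and Elk3 at -0.67. Their part in these values was not tested.

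Erg in the cerebellum depended on 1 library. It was at 33.3 and 3.87 CPM in stabilized ECs, against 17.4 and 54.1 in WT ECs, and differed by -0.97 ± 0.76 (edgeR adjusted p = 0.68). Without the first stabilized cerebellum library, the difference was -3.23 ± 0.68 and called (adjusted p = 0.0135). Here, as wherever 1 library is left out, the remaining library of the group is assumed to vary like those of the other groups. The other 6 members were at similar levels in both stabilized cerebellum libraries, with Fli1 at 217.6 and 282.5 CPM and Ets1 at 468.7 and 607.7 CPM.

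No member's response to stabilization was called to differ between tissues by edgeR, where 0.128% of genes were called for posterior against anterior pituitary, 0.52% for anterior pituitary against cerebellum and 0.927% for posterior pituitary against cerebellum. At an unadjusted p under 0.05 the counts of members were 0, 0 and 1, and DESeq2 called 0. Without the first stabilized cerebellum library Erg was called in both comparisons with the cerebellum, by 4.13 (adjusted p = 0.00928) and 3.56 (adjusted p = 0.0207). In GFP-negative cells 0 of 21 pairs were called by edgeR (0.76%, 0.0408% and 0.133% of genes in cerebellum, anterior and posterior pituitary). Those with an unadjusted p under 0.05 were Ets2 in the cerebellum, at 23.4 and 32.8 CPM in WT and 65.7 and 103.5 in stabilized cells (1.55 ± 0.44, adjusted p = 0.168), and Fli1 in the posterior pituitary, at 0.0275 and 0 CPM against 3.64 and 3.58 (7.52 ± 1.87 as fitted, with 1 WT read in all, adjusted p = 0.165), and DESeq2 called these 2. In the same posterior pituitary GFP-negative comparison the EC markers had a median of 1.71, with 7 of 10 above 0 and 0 called. The microglia markers had one of 1.68, with 10 of 10 above 0 and 0 called. Of 14 macrophage and leukocyte markers tested, 12 were above 0 and 0 called, with a median of 4.15. Their part in the Fli1 difference was not tested.

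**Figure D2:**
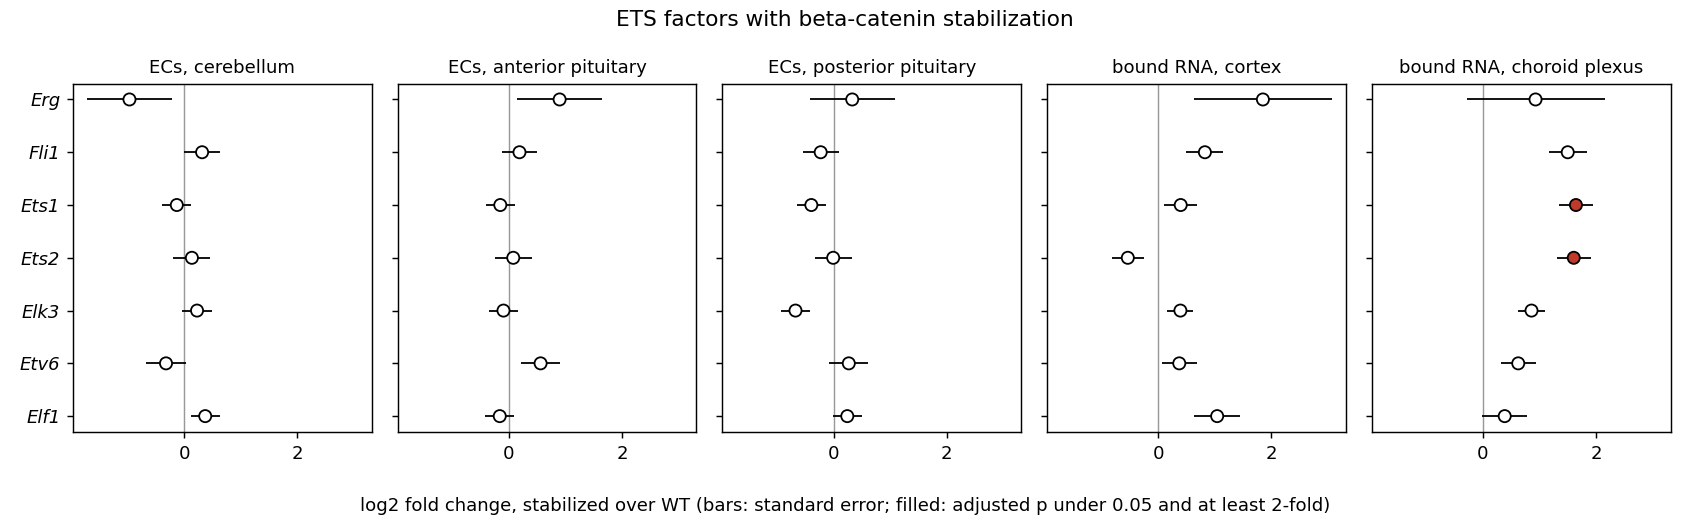
Difference between stabilized and WT mice for each ETS factor (log2 fold change, with the bars showing ± 1 SE from edgeR) in sorted ECs of cerebellum, anterior and posterior pituitary and in bound RNA of cortex and choroid plexus. Values in sorted ECs spread on both sides of 0, from -0.97 to 0.90, and all 7 are above 0 in choroid plexus bound RNA, where Ets1 and Ets2 were called.

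RiboTag RNA measured the same genes in cortex, whose ECs form the blood-brain barrier, and in choroid plexus, whose vessels are fenestrated. Erg was at 0 in both WT cortex input libraries and at 0.108 and 12.2 CPM in bound RNA, and in choroid plexus at 0 and 0.119 CPM in input and 5.42 and 8.39 CPM in bound RNA. The bound cortex level was at least 84.06-fold higher than a floor of 3 reads over both input libraries, and that in choroid plexus 105.3-fold higher, on 1 input read (interval 18.9 to 4158). Most of the cortex signal came from the second bound library. The first held 2 reads, at 0.108 CPM against a floor of 0.0731 CPM, so the limit for cortex rests on the second. Fli1 was at 4.80 and 1.73 CPM in cortex input and 74.2 and 41.1 in bound RNA, and at 3.95 and 4.04 against 27.8 and 23.8 in choroid plexus. Ets1 was at 3.27 and 3.26 CPM against 125 and 74.0 in cortex, and at 12.6 and 10.7 against 50.0 and 46.4 in choroid plexus. The bound libraries lay above the input ones for both genes in both tissues.

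Elk3 was at 8.86 and 4.46 CPM in WT cortex input and 73.8 and 60.9 in bound RNA, and at 16 and 16.8 against 50.9 and 54.1 in choroid plexus. Elf1 was at 4.65 and 6.33 CPM against 26.7 and 20.4 in cortex, and at 30.2 and 33.4 against 26.8 and 55.1 in choroid plexus, where the fractions overlapped. Ets2 was at 50.4 and 52.8 CPM in cortex input and 55.4 and 59.1 in bound RNA, and at 18.0 and 13.6 against 19.0 and 33.1 in choroid plexus. For Ets2 the bound libraries lay above the input ones by a small margin in both tissues. Etv6 was at 15.5 and 12.7 CPM against 26.7 and 23.2 in cortex, and at 11.3 and 14.4 against 22.6 and 25.3 in choroid plexus.

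In the test, 5 of 7 members were called higher in WT bound than in input RNA of the cortex (7.45% of 18226 genes) and 4 of 7 in choroid plexus (8.35%), and DESeq2 also called 5 and 4. The members' median log2 fold changes were 3.34 and 1.68 against -0.33 and 0 for all genes. In cortex these were Ets1 (4.92 ± 0.31), Fli1 (4.14 ± 0.43), Elk3 (3.34 ± 0.32), Elf1 (2.1 ± 0.35) and Erg (9.15 ± 2.15, edgeR adjusted p = 0.015), and in choroid plexus Fli1 (2.69 ± 0.43), Ets1 (2.05 ± 0.28), Elk3 (1.68 ± 0.30) and Erg (6.51 ± 1.94, adjusted p = 0.0366). Etv6 passed the p threshold in both but not the 2-fold limit, at 0.82 ± 0.25 and 0.90 (adjusted p = 0.0389 and 0.0241). Etv6 in cortex was called with an offset for gene length (2.13, adjusted p = 0.040), without the filter (1.16, 0.018), without the first input library (1.30, 0.043) and without the second bound library (1.29, 0.0083). Ets2 stood at 0.15 ± 0.24 and 0.73, and Elf1 in choroid plexus at 0.36.

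Markers of other cells were higher in bound RNA too. The 10 EC markers were all called in both tissues, with medians of 4.54 in cortex and 3.71 in choroid plexus. Of 10 microglia markers, 10 were called in cortex (median 4.47) and 8 in choroid plexus (median 2.77), and of 8 macrophage and leukocyte markers tested, 5 (3.34) and 8 (2.56). Their part in the enrichment of the members was not tested.

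The Erg calls in bound RNA rested on few reads. In cortex the call was lost without the second bound library (3.61, adjusted p = 0.14) and without either input library (adjusted p = 0.077 for both), and with 0 reads in input the fitted values are no bounds. In choroid plexus it was lost without any 1 of the 4 libraries (adjusted p = 0.057 to 0.19) and with an offset for gene length (6.54, adjusted p = 0.057). With that offset Ets1 (1.54, adjusted p = 0.14) and Elk3 (1.70, 0.078) in choroid plexus were not called either. Without 1 library the members other than Erg stayed called, with Fli1 in cortex at 5.39 without the first input library and 4.87 without the second bound library, Ets1 at 5.63 without the latter, and Elk3 at 4.24 without the first input library.

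Between WT bound RNA of the 2 tissues, Fli1, Ets1 and Ets2 were called higher in cortex than in choroid plexus, 3 of 7 members where 29.8% of 16764 genes were called. The differences were 1.25 ± 0.33 for Fli1 (edgeR adjusted p = 0.0187), 1.13 ± 0.29 for Ets1 (0.0165) and 1.21 ± 0.29 for Ets2 (0.012). All cortex libraries lay above the choroid plexus ones for these genes, as the values above show. Without the first WT cortex bound library Fli1 was at 0.69 (adjusted p = 0.13) and Ets1 at 0.64 (0.10). Without the first choroid plexus library Fli1 was at 1.26 (0.058), Ets1 at 1.09 (0.073) and Ets2 at 0.77 (0.15), and without the second Fli1 was at 1.04 (0.11) and Ets1 at 0.98 (0.10). Without the second WT cortex bound library Erg was called at -5.76. With an offset for gene length Fli1 was at 1.2 (0.082), Ets1 at 0.69 (0.21) and Ets2 at 0.89 (0.14), and with the 2 groups fitted alone Fli1 was at 1.24 (0.057) and Ets1 at 1.12 (0.054). In the same comparison 10 of 10 microglia markers were called higher in cortex (median 3.42), while the EC markers had a median of -0.97 with 8 of 10 below 0. Their part in the differences of the members was not tested.

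**Figure D3:**
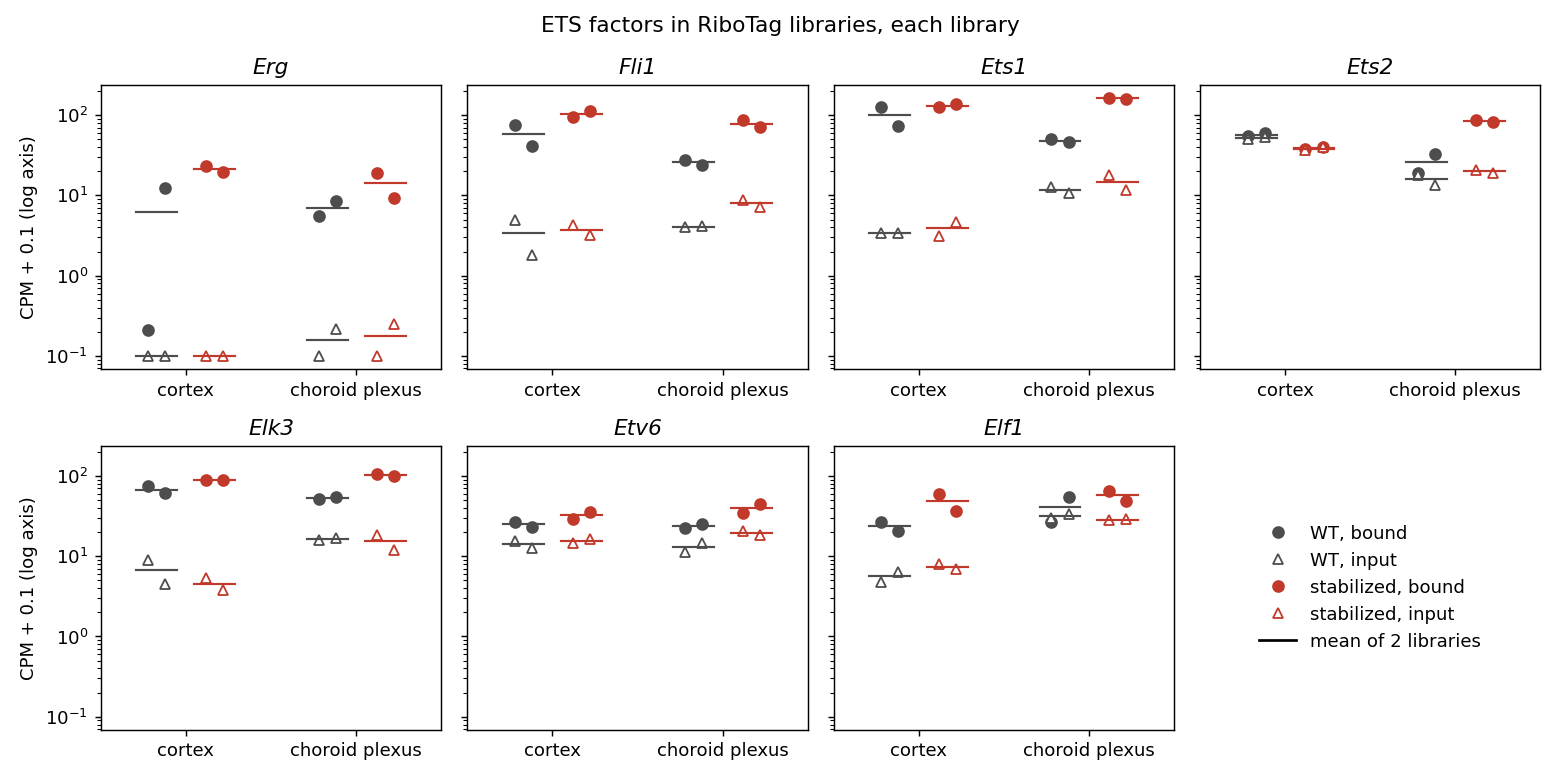
Level of each ETS factor in the RiboTag libraries (CPM on a log scale, with each point 1 library and 2 per group), in input and bound RNA of cortex and choroid plexus from WT and stabilized mice. Erg is at or near 0 in all input libraries, and Ets1 and Ets2 in choroid plexus bound RNA lie higher in stabilized than in WT mice (164.2 and 158.7 against 50.0 and 46.4 CPM for Ets1).

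Stabilization went with higher Ets1 and Ets2 in bound RNA of the choroid plexus. Ets1 was at 50.0 and 46.4 CPM in WT and 164.2 and 158.7 CPM in stabilized mice, a difference of 1.65 ± 0.30 (edgeR adjusted p = 0.0404). Ets2 was at 19.0 and 33.1 CPM against 86.7 and 82.7 CPM, a difference of 1.61 ± 0.30 (adjusted p = 0.0451). In choroid plexus bound RNA these 2 of 7 members were called, where 0.853% of genes were. Fli1 was at 27.8 and 23.8 CPM against 86.0 and 70.7 (1.5 ± 0.34, adjusted p = 0.091) and was called by DESeq2 at 1.53, along with Ets1 and Ets2, without the filter on low counts (1.53, adjusted p = 0.000309) and with only the compared groups (1.59, adjusted p = 0.0268). Elk3 was at 50.9 and 54.1 CPM against 105.7 and 98.3 (0.86, adjusted p = 0.14). Etv6 was at 22.6 and 25.3 CPM against 34.3 and 44.7, Erg at 5.42 and 8.39 against 19.1 and 9.16, and Elf1 at 26.8 and 55.1 against 65.1 and 49.2. The stabilized libraries lay above the WT ones for 6 of 7, all but Elf1, as they did for 20% of all genes, and the members' median was 0.93 against -0.09 for all genes.

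In the same choroid plexus bound libraries the sum of 10 EC markers was 579.2 and 725.2 TPM in WT and 1448.7 and 1034 TPM in stabilized mice, and that of 8 choroid plexus epithelium markers 22103.1 and 22993.4 against 14828.7 and 12850.8 TPM. The median log2 difference of the EC markers was 0.74, with 10 of 10 above 0 and 0 called. In choroid plexus input the EC marker sum was 34.6 and 33.7 against 50.0 and 51.2 TPM. Their part in the Ets1 and Ets2 differences was not tested.

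Both calls were near the threshold. Ets1 lost its call without any 1 of the 4 libraries, with differences of 1.61 to 1.74 and adjusted p-values of 0.056 to 0.13. Ets2 lost it without the first WT library (1.29, adjusted p = 0.22), the first stabilized library (1.66, 0.085) or the second (1.64, 0.081). With an offset for gene length Ets1 was at 1.16 (0.30) and Ets2 at 1.58 (0.21), neither called. In TPM both genes were higher in stabilized libraries as well, Ets1 at 11.6 and 14.9 against 36.3 and 20.3 and Ets2 at 1.87 and 3.49 against 7.92 and 7.16.

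In cortex bound RNA 0 of 7 members were called by edgeR (6.31% of genes called) or by DESeq2, and 2 had an unadjusted p under 0.05. Fli1 was at 74.2 and 41.1 CPM in WT and 93.7 and 111.3 in stabilized mice (0.83, adjusted p = 0.17), and Elf1 at 26.7 and 20.4 against 60.0 and 36.5 (1.04, adjusted p = 0.163). Ets2 was at 55.4 and 59.1 CPM against 38.1 and 39.9, the lowest difference of the range of -0.54 to 1.85. Elk3 was at 73.8 and 60.9 CPM against 87.8 and 88.1 (0.39) and Etv6 at 26.7 and 23.2 against 28.5 and 35.6 (0.37). Ets1 was at 125 and 74.0 CPM against 124.7 and 137.9, and Erg at 0.108 and 12.2 against 23.1 and 19.2. The stabilized libraries lay above the WT ones without overlap for 5 of 7 members, below them for Ets2, and overlapped them for Ets1. Of all genes, 25.8% lay above and 26.3% below without overlap. In cortex input Ets2 was likewise lower without overlap, at 50.4 and 52.8 CPM in WT and 36.5 and 39.5 in stabilized mice (-0.36, edgeR unadjusted p = 0.0484, adjusted p = 0.128). Without the second WT library, which leaves a WT library with 2 Erg reads, Erg was called at 7.43 (adjusted p = 0.0014). Without the first, Fli1 was called at 1.39 (0.025), and without the filter on low counts Erg (1.83, 0.041) and Elf1 (1.05, 0.038) were called. In TPM Ets1 was at 57.2 and 39.1 against 33.3 and 36.1, below WT, where the median of all genes was -0.85 on the log2(TPM + 1) scale. The EC marker sum there was 1217.3 and 470.7 TPM in WT and 1187.9 and 1073.4 TPM in stabilized mice, while neuron markers summed to 1288.5 and 1579.9 against 433.9 and 376.9 TPM and microglia markers to 3870.1 and 2694.1 against 1424.3 and 1202.8 TPM. In the test on counts the EC markers had a median of 0.91, with 10 of 10 above 0 and 3 called, and the microglia markers one of 0.03. Their part in these values was not tested.

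The test of the difference between the tissues was passed by Ets2 alone. Its response in choroid plexus exceeded that in cortex by 2.14 ± 0.41 (edgeR adjusted p = 0.0367), 1 of 7 members where 2.15% of genes were called, and DESeq2 also called 1. Ets1 stood at 1.25 (adjusted p = 0.158). The Ets2 call was lost without the first WT choroid plexus library (1.82, adjusted p = 0.08), the first stabilized choroid plexus library (2.24, 0.053), the second (2.17, 0.052), the first stabilized cortex library (2.24, 0.11) or the second (2.3, 0.088), and with an offset for gene length (2.08, 0.14), which left the size near the main value. Without the second WT cortex bound library, Ets2 was joined by Erg (-6.42) and Ets1 (1.68). In input RNA, 0 of the 6 members tested were called in cortex or choroid plexus by edgeR or DESeq2 (11.8% and 0.106% of genes), and Erg had too few reads to be tested. Those with an unadjusted p under 0.05 were Ets2, as given above, and Elf1 in cortex (0.50, adjusted p = 0.098) and Etv6 in choroid plexus (0.58, adjusted p = 0.57). Ets2 in choroid plexus input was at 18.0 and 13.6 CPM in WT and 20.9 and 19.1 in stabilized mice (0.33, adjusted p = 0.73).

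The rest of the family gives the scale of these changes. Of the other 19 ETS genes listed, Elk4, a ternary complex factor like Elk3, was the most abundant per length in ECs (mean 193 TPM in GFP-positive libraries, range 65.19 to 539.4, against a median of 33.83 in GFP-negative ones), followed by Elf2 (mean 43.2 TPM) and Gabpa (28.19 TPM), while Etv2, an early hemato-endothelial factor, was at 0 in every sorted library. The range of Elk4 overlapped those of Ets1 (63.2 to 262.1 TPM) and Elk3 (86.73 to 467.6 TPM). Its mean is another measure than the medians given for the 7 members, so they are not ranked together. Of the 16 that could be tested, 2 were called higher and 3 lower in WT ECs than in GFP-negative cells of the cerebellum, 3 and 0 in the anterior pituitary, and 4 and 3 in the posterior pituitary. Of all genes, 4.46% were called higher and 6.89% lower in the cerebellum, 5.46% and 5.87% in the anterior pituitary, and 7.08% and 7.46% in the posterior pituitary. Elk4 was higher in all 3 (log2 differences of 2.72, 1.56 and 1.75), Elf2 in 2 of them (1.23 and 1.33), and Etv1 was lower in cerebellum (-3.30) and posterior pituitary (-4.85). Etv1 and Etv2 were named after their values were seen. With stabilization edgeR called 0 of 14 in ECs of any tissue.

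Of 25 EC genes listed for ETS-dependent enhancers or promoters, 22, 22 and 25 were called higher in WT ECs of cerebellum, anterior and posterior pituitary, with median log2 differences of 6.47, 7.75 and 8.87, and 25 and 22 in bound RNA of cortex and choroid plexus. Of all genes, 4.46%, 5.46% and 7.08% were called higher in these ECs and 7.45% and 8.35% in bound RNA. Of all genes, 0.648%, 0.458% and 1.82% were called with stabilization in ECs of cerebellum, anterior and posterior pituitary. Of the 25, 0 were called with stabilization in cerebellum ECs, and in anterior pituitary ECs Vwf, the platelet-binding factor, was higher by 6.51 ± 0.56. In posterior pituitary ECs Cldn5, the main tight junction claudin of the blood-brain barrier, was higher by 3.10 ± 0.48, and Kdr, the receptor for VEGF (-1.89 ± 0.32), Notch4 (-1.68 ± 0.36) and Pecam1 (-1.07 ± 0.24) were lower. In cortex bound RNA, where 6.31% of all genes were called, 7 were higher, led by Flt4 (2.22), Ramp2 (1.98) and Notch4 (1.86), and in choroid plexus, where 0.853% were called, 3, Angpt2 (3.22), Cldn5 (3.19) and Lmo2 (2.24). The list's median in bound RNA was 1.06 in cortex, with 22 of 25 above 0, and 0.80 in choroid plexus, with 24 of 25 above 0. In sorted ECs the list's median was -0.24 in cerebellum, with 21 of 25 below 0. It was 0.009 in anterior pituitary, with 13 above 0, and -0.32 in posterior pituitary, with 16 below 0. The responses of Lmo2 (2.66) and Cldn5 (2.09) differed between choroid plexus and cortex bound RNA, where 2.15% of all genes were called. In sorted ECs 1 of the 25 was called in each difference between the responses of 2 tissues. Of all genes, 0.128% were called there for posterior against anterior pituitary, and 0.52% and 0.927% for anterior and posterior pituitary against cerebellum. In the comparison of stabilized with WT anterior pituitary ECs, the microglia markers had a median of 6.93, with 10 of 10 above 0 and 1 called higher. The 12 macrophage and leukocyte markers tested had one of 4.42, with 11 above 0 and 2 called higher, while 5 of 10 EC markers were above 0 and 0 called. Their part in the Vwf difference was not tested. The changes in posterior pituitary and bound RNA stand beside the EC and microglia marker values given above for the same comparisons, and their part in them was not tested.

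Which promoters the reads came from was read from the transcripts. The files quantify 5 of the 8 annotated Erg transcripts, none of which begins at the gene's outer start, and 1 of the 6 of Ets2, so no share can be given for the transcripts left out. Among the quantified transcripts Erg took 89.84 to 100% (median 98.47%) of its estimated reads in the 12 GFP-positive libraries from transcripts that start at chr16:95459245-95459348, 127.2 kb inside the gene as annotated. An ATAC peak at chr16:95458961-95459805 covered that start in all 12 libraries, at 4.57 to 9.48-fold enrichment over background. Ets1 took 94.26 to 98.87% from starts at chr9:32696022-32696384, 59.8 kb inside the gene, under a peak at chr9:32695426-32696331 in all 12 (11.9 to 16.3-fold), while the gene's outer start had a peak (chr9:32635976-32637803) in 9 of 12. Fli1 took 85.1 to 100% (median 93.09%) from the start of its main transcript, under a peak at chr9:32540741-32542057 in all 12. In Ets1 the inner starts thus took nearly all estimated reads, while the outer start was quantified too.

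Elf1 was the exception. It took 38.8 to 100% (median 96.34%) of its estimated reads from starts at chr14:79515674-79515698, 34.5 kb inside the gene, where no library had a peak, while its outer start at 79481194, next to that of Wbp4, had a peak (chr14:79480668-79482203) in all 12. The main starts of Elk3, Ets2 and Etv6 had a peak in all 12, with 64.76 to 95.34% of Elk3 reads and 95.42 to 100% of Etv6 reads from them. Salmon divides reads between transcripts that share sequence, so these shares are estimates, and for Elf1 in GFP-positive libraries the transcript share and the peaks name different starts. In the 8 bound libraries the outer start of Elf1 took 0 to 100% of its estimated reads (median 35.56%). In the 8 input libraries it took 0 to 62.23% (median 47.4%).

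The promoter at the start that took most of the quantified Erg reads is printed because its peak was present in every library. The 250 bases before the start (RefSeq promoter table, GRCm38, chr16:95459349-95459598, minus strand) hold 1 ETS match, in capitals, which is TTCCTG on the strand shown and CAGGAA on the other. Of 32851 mouse promoters of that length, 25.71% hold CAGGAA, 12.03% CCGGAA and 35.06% either, on either strand, so the match is common and describes the sequence only.
Erg promoter: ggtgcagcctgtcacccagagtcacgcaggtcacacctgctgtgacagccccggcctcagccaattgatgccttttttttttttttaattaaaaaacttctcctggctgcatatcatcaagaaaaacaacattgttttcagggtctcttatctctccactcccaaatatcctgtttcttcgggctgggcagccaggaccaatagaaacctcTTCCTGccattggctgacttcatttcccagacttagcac

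Of the 186 ATAC regions within 50 kb of a member, 35 were near Erg, 27 near Fli1, 33 near Ets1, 13 near Ets2, 26 near Elk3, 32 near Etv6 and 21 near Elf1, with 1 counted for both Fli1 and Ets1. A peak in all 12 libraries was found for 28 (15.05%), against 20.36% of all regions. Peaks are the authors' calls for each library, kept above a fold enrichment of 2 and a -log10 q of 2. A region was counted as gained where both stabilized libraries and no WT library of a tissue had a peak, and as lost for the reverse, out of the regions with a peak in both libraries of at least 1 genotype.

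Near the members, 14 of 81 regions were gained and 0 lost in the cerebellum (16.7% and 2.27% of all regions), 7 and 3 of 112 in the anterior pituitary (6.99% and 4.7%), and 40 and 0 of 83 in the posterior pituitary (27.0% and 1.97%). In the posterior pituitary the gained regions were 5 of 13 near Erg, 6 of 13 near Fli1, 7 of 18 near Ets1, 4 of 5 near Ets2, 7 of 15 near Elk3, 8 of 14 near Etv6 and 3 of 6 near Elf1, so every member had some. With 1 library per group the counts over the 3 tissues moved from 61 gained and 3 lost to 108 and 30 without replicate 1 and 105 and 12 without replicate 2. The 3 lost in the anterior pituitary were chr10:93261726-93262461 near Elk3, in an exon of Cdk17, chr16:95508987-95511010 in an Erg intron, and chr16:95658959-95659170 near Ets2.

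The peak lists were longer in stabilized than in WT libraries of the cerebellum and posterior pituitary, and their lengths overlapped in the anterior pituitary. WT posterior pituitary libraries had 21050 and 20634 peaks and stabilized ones 28926 and 38583, against 26394 and 24020 and then 33514 and 31669 in the cerebellum, and 36860 and 45040 and then 40071 and 42621 in the anterior pituitary. With the 20634 strongest peaks of each library, an alternative chosen after the data were seen, gained and lost regions near the members were 7 and 2 of 57 in the cerebellum (6.82% and 4.51% of all regions), 2 and 0 of 54 in the anterior pituitary (4.05% and 2.87%), and 8 and 1 of 45 in the posterior pituitary (9.67% and 6.85%). The posterior pituitary count thus fell from 40 to 8 gained regions.

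**Figure D4:**
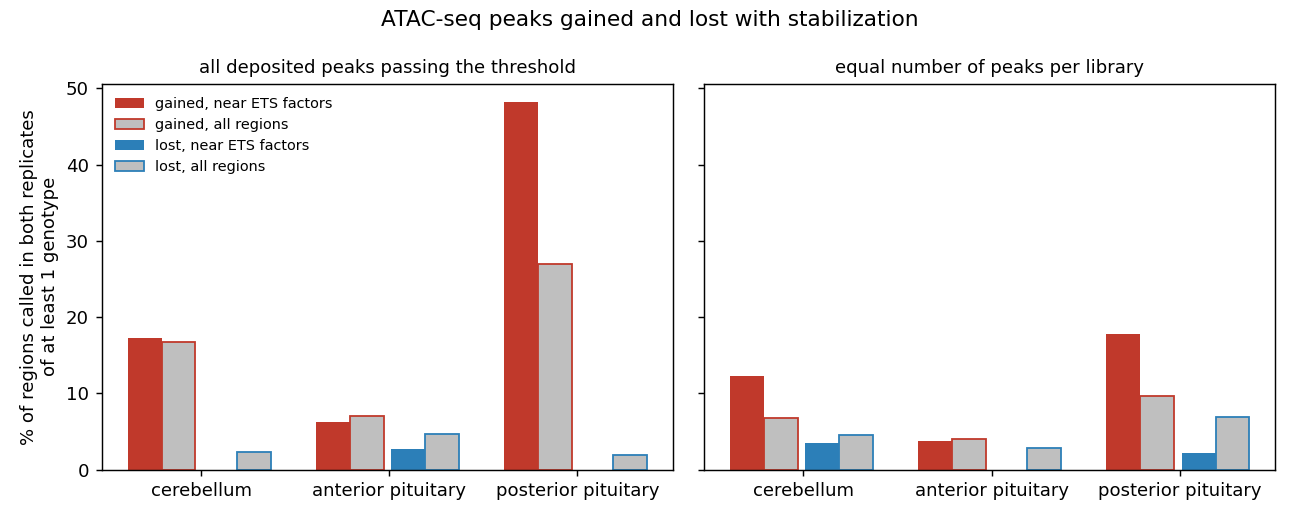
Share of ATAC regions gained and lost with stabilization in cerebellum, anterior and posterior pituitary, in percent of the regions with a peak in both libraries of either genotype, for regions within 50 kb of the ETS factors and for all regions, with all peaks and with an equal number of peaks per library. The gained share in posterior pituitary is highest with all peaks (40 of 83 near the members) and drops with equal lists (8 of 45).

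Among WT ECs, 7 regions near the members were found in cerebellum and not anterior pituitary and 41 the reverse, of 102, where 41.5% of all regions differed between these tissues. Between cerebellum and posterior pituitary 17 and 3 of 57 differed (25.6% of all regions), and between anterior and posterior pituitary 50 and 0 of 93 (41.0%). The tissue with the longer peak lists had more regions in each case, and with equal lists the number that differed fell from 118 to 55.

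The 6 regions gained in both lobes, whose sequences are given above, differed in what the cerebellum showed. The region in an Erg intron had no peak in WT ECs of any tissue and was at 7.49 and 8.41-fold enrichment in stabilized anterior pituitary, 4.34 and 4.44 in stabilized posterior pituitary and 5.62 and 4.39 in stabilized cerebellum ECs, so it was gained in all 3 tissues, but with equal lists it was gained in none. It holds a CAGGAA match and no TCF/LEF match. The region 20 kb upstream of Fli1 was at 11.5 and 10.6-fold in stabilized anterior and 8.17 and 7.59 in stabilized posterior pituitary, but the cerebellum also had it, at 9.07 and 9.49 in WT and 12.8 and 12.3 in stabilized mice. It was gained in both lobes with equal lists as well, and holds neither motif.

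The region upstream of Ets1 at the start of Gm47680, with its ATCAAAG match, showed the same pattern. It was at 8.78 and 8.06-fold in stabilized anterior and 5.93 and 6.38 in stabilized posterior pituitary, while cerebellum ECs showed 9.94 and 5.80 in WT and 10.8 and 9.80 in stabilized mice. The Ets1 intron region, with a TTCAAAG match, was at 3.66 and 3.95 and then 4.78 and 2.87 in the stabilized lobes, had a peak of 2.94 in the second WT cerebellum library only, and was at 4.58 and 6.92 in stabilized cerebellum. The Elk3 intron region was at 3.0 and 3.22 and then 3.54 and 3.50 in the stabilized lobes, had a peak of 3.06 in the second WT cerebellum library only, and was at 7.0 and 5.84 in stabilized cerebellum. The Ets2 intron region, with a CAGGAA match, was at 3.25 and 3.83 and then 3.03 and 4.13 and had no peak in the cerebellum. With equal lists the region at Gm47680 was gained in the posterior lobe alone, the Elk3 region in the cerebellum alone, and the Ets1 and Ets2 intron regions in no tissue. Of the 6 regions, 2 had a peak in both WT cerebellum libraries. Having no peak in the WT pituitary was part of how the 6 were chosen.

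**Figure D5:**
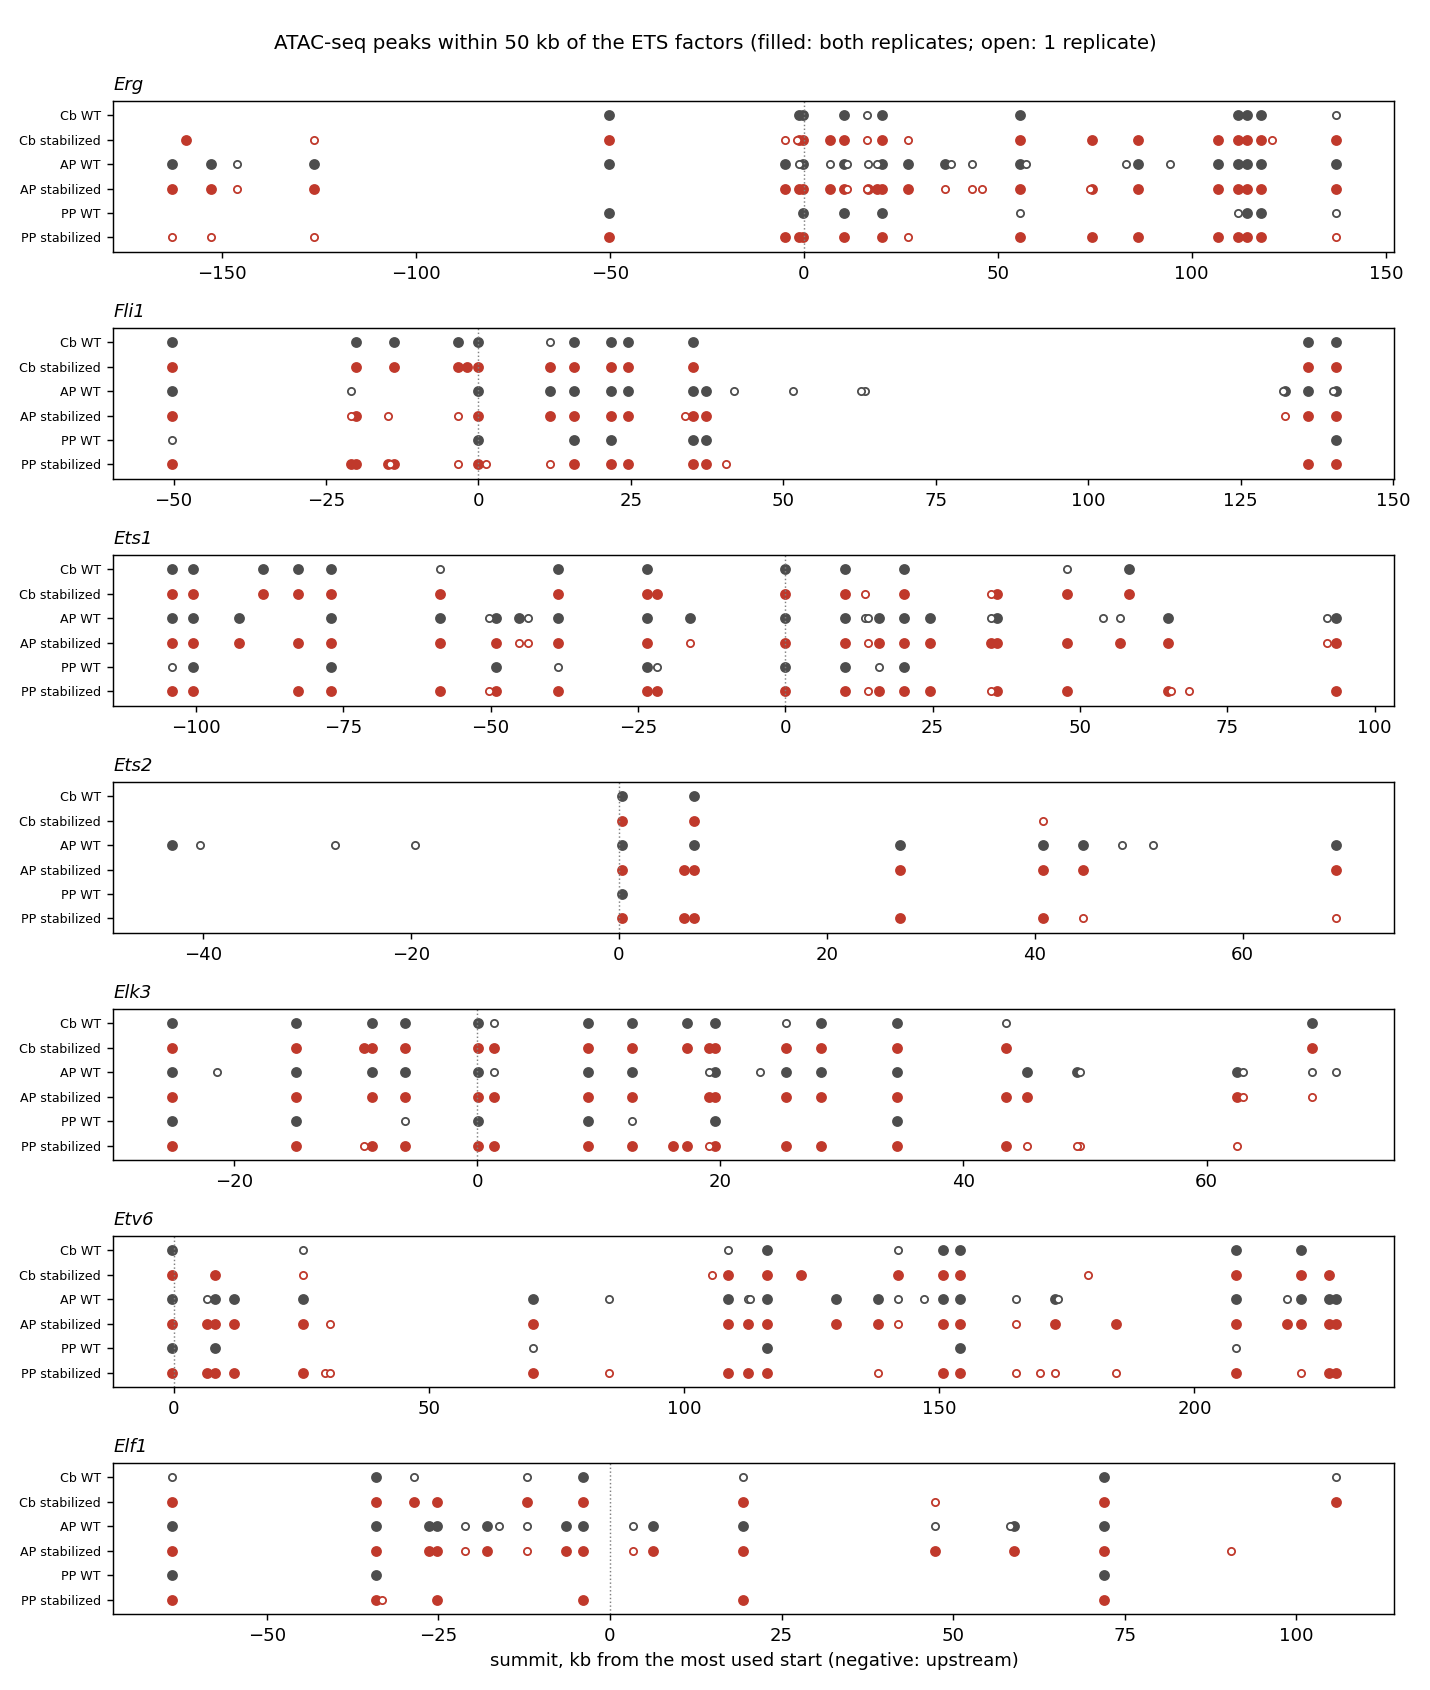
ATAC peaks within 50 kb of each ETS factor in WT and stabilized ECs of Cb, AP and PP (cerebellum, anterior and posterior pituitary), plotted by distance from the gene's most used start (kb), with filled marks where both libraries of a group have a peak and open marks where 1 has. Peaks at the start are shared by all groups for every member except Elf1, and filled marks in stabilized PP outnumber those in WT PP (40 regions gained, 0 lost).

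A further 5 regions gained in the posterior pituitary held a TCF/LEF match. With equal lists, those of Erg and Ets2 were gained in the posterior pituitary too, and those of Elk3 and Ets1 in no tissue. To show the setting of each match, 41 bases around it are given on the plus strand of GRCm38, with the match in capitals.
Elk3, chr10:93293824-93293864: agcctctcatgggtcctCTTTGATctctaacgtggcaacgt
Elk3, chr10:93309756-93309796: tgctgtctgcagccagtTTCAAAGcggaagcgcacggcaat
Erg, chr16:95460462-95460502: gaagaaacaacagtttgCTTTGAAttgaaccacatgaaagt
Ets1, chr9:32637416-32637456: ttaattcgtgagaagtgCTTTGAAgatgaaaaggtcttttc
Ets2, chr16:95709300-95709340: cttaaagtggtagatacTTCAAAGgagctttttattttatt

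Within 100 bases of the summit, TTCAAAG or ATCAAAG was found in 19 of 186 regions near the members (10.22%) and in 7.893% of all regions. Among regions gained in the posterior pituitary it was found in 7 of 40 near the members (17.5%) against 15.64% of all gained regions, in the anterior pituitary in 2 of 7 (28.57%) against 22.26%, and in the cerebellum in 0 of 14 against 12.84%. The gained regions near the ETS factors thus held these letters at shares near those of other gained regions in both pituitary lobes. CCGGAA or CAGGAA was found in 87 of the 186 (46.77%) against 45.6% of all regions, and in 16 of 40 gained in the posterior pituitary (40%) against 54.67%. The longer ETS form ACCGGAAGT was found in 1 of 186, near Elf1 (0.5376%), against 0.5409% of all regions. A match names letters in the window and not a bound factor.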

How the data were processed

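RNA-seq and ATAC-seq libraries were grouped by their titles and genotypes. The authors quantified single-end reads with Salmon 0.10.2 on the Ensembl 92 GRCm38 transcriptome, and the deposited files give estimated counts, TPM and effective transcript length per transcript. Estimated counts and TPM were summed over transcripts to genes (GENCODE M21 gene names and coordinates), and counts were rounded. Salmon divides reads between transcripts that share sequence, so transcript levels are less certain than gene sums. ATAC-seq reads were aligned by the authors with Bowtie2 2.3.2 to mm10, duplicates removed with Picard, and peaks called per library with MACS2 2.1.1.20160309. The deposited peak lists give fold enrichment (a ratio to local background) and -log10 p and -log10 q. They hold no read counts, so peaks were compared by presence, with the threshold on fold enrichment and q described above and an overlap of at least 1 bp.

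Counts were tested with edgeR 4.0.16 (quasi-likelihood, TMM scaling, filterByExpr, R 4.3.3), 1 coefficient per group, with p-values adjusted over all genes tested. The EBSeq program of the study was not used here. CPM are TMM-scaled and TPM were used on the log2(TPM + 1) scale for likeness between genes. Alternatives were DESeq2 1.42.0, RLE scaling, no filter on low counts, a gene length offset from the effective lengths, a fit of the compared groups alone, a replicate block, and each library left out in turn. Scripts were tested on simulated data (Python 3.11.15, pandas 2.3.3, scipy 1.17.1, pysam 0.24.0, matplotlib 3.10.9). The members, gene lists and tests were chosen with earlier results of these data known. All 7 members were tested or counted in each comparison where their reads allowed, and values of single members are given where they bear on the counts. From the other ETS genes and the EC genes with ETS sites, those named were the 3 called with the largest change in each comparison of stabilized with WT ECs and the 3 family genes with the highest mean TPM, and any others are identified as such or belong to counts of 5 or fewer. For likeness, the 3 genes with the highest r were named, except 1 that is not reported here. Same-group libraries differed by more than sampling noise, so none was counted as a duplicate. Promoter sequences matched 5 of the 7 members in the RefSeq table. Counting intervals cover counting error only, and each RNA-seq value rests on the read totals given in the report.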

Additional observations from a re-analysis of the deposited data

Results flagged for a closer look

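The response of Ets2 to beta-catenin stabilization differed between bound RNA of choroid plexus and of cortex, by a log2 difference of 2.14 ± 0.41 (edgeR adjusted p = 0.0367, n = 2 per group). Ets2 was higher in both stabilized than in both WT libraries of the choroid plexus (86.7 and 82.7 against 19.0 and 33.1 CPM), and lower in both stabilized than in both WT libraries of the cortex (38.1 and 39.9 against 55.4 and 59.1 CPM). In cortex input, Ets2 was lower too, at 36.5 and 39.5 in stabilized against 50.4 and 52.8 CPM in WT libraries. Ets2 in WT cortex bound RNA stood at 0.15 ± 0.24 over input and was not called. In the same choroid plexus bound libraries the EC marker sum was 579.2 and 725.2 TPM in WT and 1448.7 and 1034 TPM in stabilized mice, and the epithelium marker sum 22103.1 and 22993.4 against 14828.7 and 12850.8 TPM. In cortex bound RNA the neuron and microglia marker sums in TPM were lower in stabilized than in WT mice, as given above. On counts the microglia markers there had a median log2 difference of 0.03 and the EC markers one of 0.91. Their part in the difference was not tested. The interaction test picked it out, and the call was lost when any 1 of 5 of the 8 bound libraries was left out (1.82 to 2.3, adjusted p = 0.052 to 0.11) and with an offset for gene length (2.08, adjusted p = 0.14).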

How the results depend on the processing

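Over 35 member comparisons with an adjusted p under 0.05, 388 repeats were made under another setting or without 1 library. All kept the direction, and 325 also stayed past the threshold. Of these, the 35 without the 2-fold minimum reuse the main fit, so they could neither reverse nor weaken. The 63 that did not stay past the threshold were 40 with 1 library left out, 12 with an offset for gene length, 7 with only the compared groups fitted, 3 with a replicate block and 1 without the filter on low counts. The cause was not tested. Called pairs in WT ECs against GFP-negative cells numbered 16 (14 to 18 under other settings, 15 to 17 without 1 library), and in bound against input RNA 9 (7 to 11, and 8 to 9). Between WT ECs of different tissues the count of 2 became 4 with DESeq2 or without the filter, 0 with the length offset or only the compared groups, and 1 to 2 without 1 library. The count of 0 between stabilized and WT ECs was 0 to 1 without 1 library, and that of differences between responses 0 to 2. In GFP-negative cells 0 became 2 with DESeq2, 1 without the filter and 0 to 1 without 1 library.

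In bound RNA the 2 calls between genotypes became 5 without the filter, 0 with the length offset, 0 with a replicate block and 0 to 3 without 1 library. The single difference between responses became 0 with the length offset and 0 to 3 without 1 library, and the 3 calls between WT tissues became 0 with the length offset, 1 with only the compared groups and 0 to 4 without 1 library. Input RNA gave 0 under every setting. Replicate numbers did not pair the samples (r of -0.177 to 0.144 between same-numbered deviations). With the replicate block, Ets1 (1.65, adjusted p = 0.053) and Ets2 (1.63, 0.062) in choroid plexus and Etv6 in cortex bound against input (0.83, 0.059) passed no longer, and Erg in anterior pituitary ECs against GFP-negative cells was called with the block within each preparation (6.82, 0.044), which also put Erg in the cerebellum at 7.45 and Ets1 in the posterior pituitary at 9.39, both still called. Erg in cortex could not be fitted with only the compared groups. Gained or lost regions near the members numbered 64 (61 gained and 3 lost), which became 138 without replicate 1 (108 and 30), 117 without replicate 2 (105 and 12) and 20 with equal lists (17 and 3), so with 1 library per group the lost regions rose from 3 to 30 or 12. Those that differ between WT tissues numbered 118, which became 238 without replicate 1, 158 without replicate 2 and 55 with equal lists. Few or 0 reads of Erg in GFP-negative and input libraries leave its ratios with wide counting intervals.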
